A study of Homo sapiens with 4 samples.

Results

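The 7 genes described here, ALB, APOB, APOA1, HNF4A, SERPINA1, TTR and FGA, are classic genes of the hepatocyte, the main parenchymal cell of the liver. Around each gene a window was drawn that holds the gene body and 50 kb to either side, in build hg19, and every peak whose centre lay in a window was taken. This gave 22 peaks of 61551 in all: 20 of the 48962 TEAD1 peaks, 1 of the 10118 peaks of the Avruch antibody against YAP and 1 of the 2471 peaks of the Santa Cruz antibody against YAP. The peaks come from chromatin immunoprecipitation followed by sequencing in H69 cells. The labels call H69 a human cell line, and in liver research the name stands for an immortalised line of cholangiocytes, the epithelial cells of the bile duct. Untreated or treated groups are not named in the labels: the libraries differ only in the antibody, and each antibody has 1 library. The genes were chosen as a lineage that bile duct cells do not use, but the peak lists hold no expression, so whether these genes were silent in the cells was not measured.

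YAP is a transcriptional coactivator that the kinases of the Hippo pathway keep out of the nucleus. It does not bind DNA by itself and reaches its sites mainly through the TEAD factors, of which TEAD1 is one. In the liver, Hippo signalling is known to act on the balance between hepatocyte and bile duct identity, and high YAP activity pushes mouse hepatocytes towards a ductal state. Bile duct cells and hepatocytes arise from a common progenitor, the hepatoblast, so their genes are often set against each other.

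TEAD1 peaks were found around all 7 hepatocyte genes, whereas each YAP antibody gave a peak near 1 of them. The number of TEAD1 peaks per window was 6 at HNF4A, 5 at APOA1, 2 each at ALB, APOB, SERPINA1 and FGA, and 1 at TTR. As background, the placed chromosomes were laid out in tiles of 124 kb, the mean length of the 7 windows. Of these tiles, 66.8% held at least 1 TEAD1 peak, 25.6% at least 1 Avruch peak and 6.63% at least 1 Santa Cruz peak. The tiles include assembly gaps and stretches far from genes, so they are not a background of genes. A window with a TEAD1 peak was thus common throughout the genome, and so was a window with no YAP peak.

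Over the 0.868 Mb of the 7 windows, TEAD1 peaks lay at 23.0 per Mb (exact Poisson 95% interval 14.1 to 35.6), against 16.2 per Mb over all placed chromosomes. The ratio was 1.42, with an interval (0.870 to 2.20) that included 1. Avruch peaks lay at 1.15 per Mb in the windows (0.0292 to 6.42), against 3.24 per Mb overall. Santa Cruz peaks lay at 1.15 per Mb in the windows (0.0292 to 6.42), against 0.761 per Mb overall. With 1 YAP peak per antibody, both intervals included the overall density, and the ratio to it had an interval of 0.00900 to 1.98 for Avruch and 0.0383 to 8.44 for Santa Cruz. All such intervals cover counting error alone. No replicate exists for any antibody, so no test of a difference could be made.

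**Figure D1:**
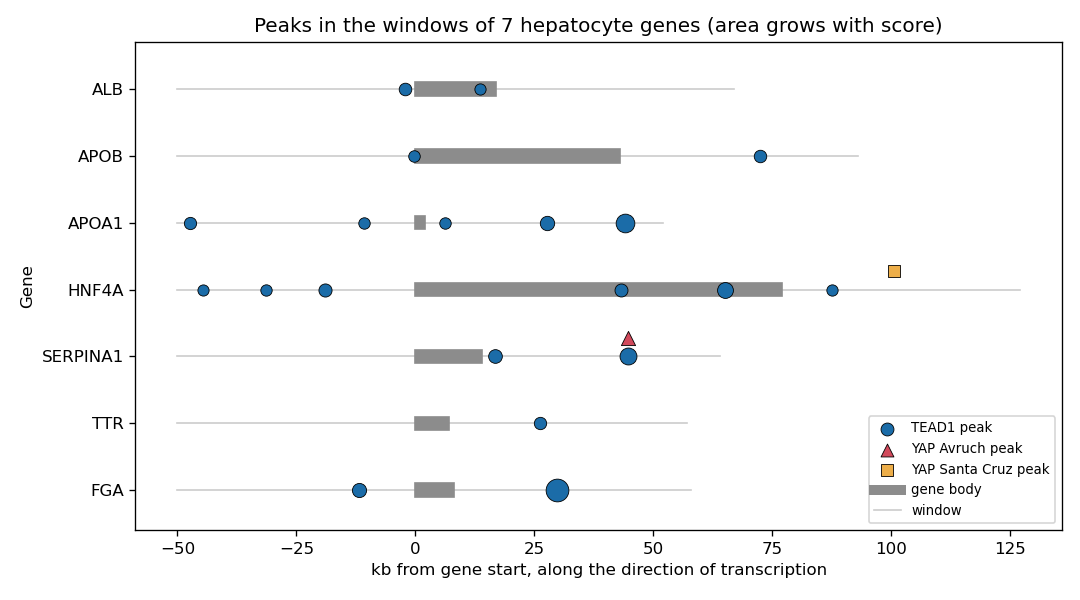
Peaks in the window of each of the 7 hepatocyte genes, placed by the distance of the peak centre from the gene start in kb along the direction of transcription. Blue circles are TEAD1 peaks, the red triangle is the Avruch peak and the yellow square is the Santa Cruz peak, drawn above the line, with an area that grows with the authors' score; grey bars are gene bodies. A reader should see 20 TEAD1 peaks spread over the 7 windows, of which 1 coincides with a YAP peak, at SERPINA1.

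ALB had a TEAD1 peak a short way upstream of its start and another inside the gene. It encodes albumin, the most abundant plasma protein, and its window was chr4:74220000-74337000. The first ALB peak lay at chr4:74267640-74267889, centred 2.2 kb upstream of the gene start, with a score of 74.0, and 40.2% of the TEAD1 list scored as high or higher. The second lay inside the gene at chr4:74283476-74283703, 13.6 kb past the start, and its score of 51.1 stood near the bottom of the list, with 97.4% of peaks at or above it. Scores are the authors' own values, have no stated unit and begin at about 50 in each list, so they are read here only as ranks within a list. AFP, which encodes the fetal counterpart of albumin, is the next gene downstream, and the nearer peak lay 18.3 kb before its start. No YAP peak fell in the ALB window: the nearest Avruch peak lay 270.6 kb from the gene body and the nearest Santa Cruz peak 2213.4 kb from it.

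TTR encodes transthyretin, a carrier of thyroid hormone and of the retinol-binding protein. Its window, chr18:29122000-29229000, held the fewest peaks of the 7. A single TEAD1 peak lay at chr18:29198024-29198227, 19.0 kb beyond the gene's end and 3.8 kb from the end of the neighbouring gene B4GALT6, a galactosyltransferase gene. It scored 69.9, and 45.3% of the TEAD1 list scored as high or higher. The next TEAD1 peak on the chromosome was 166.9 kb away from it, the widest gap among the 20. The nearest YAP peaks lay 486.4 kb from TTR with the Avruch antibody and 3172.2 kb with the Santa Cruz antibody.

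The apolipoprotein genes differed from each other in the number and place of their TEAD1 peaks. APOB encodes the structural protein of very-low-density and low-density lipoproteins. It had the only TEAD1 peak within 1 kb of a start site of the 7 genes, at chr2:21267131-21267356, where the centre lay 0.2 kb upstream of the start. Gene positions are known here only to the nearest kb, so this peak may lie on either side of the start. Its score of 56.2 was low, with 77.2% of the list at or above it. The other APOB peak, at chr2:21194434-21194855, lay 29.1 kb beyond the gene's end with a score of 72.5. The body of the gene between them, and the rest of the window of chr2:21174000-21317000, held no peak of any list. The nearest YAP peaks were 430.3 kb (Avruch) and 510 kb (Santa Cruz) from the gene.

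APOA1 encodes the main protein of high-density lipoprotein and lies in a cluster with APOC3, APOA4 and APOA5, which encode further proteins of lipoprotein and triglyceride metabolism. With 5 TEAD1 peaks in its window (chr11:116656000-116758000), this window had the highest density of the 7, 49.0 per Mb. At least as many peaks were found in 9.18% of genome tiles of that length. None of the 5 lay in APOA1 itself. The strongest, at chr11:116663753-116664204, scored 211.7 (the top 6.90% of the TEAD1 list) and was centred 1.0 kb upstream of the start of APOA5, 44.0 kb from that of APOA1. A peak of score 108.5 at chr11:116680091-116680639 lay between APOA5 and APOA4. A weak peak of score 54.9 at chr11:116701656-116701886 lay in APOC3. The remaining peaks, with scores of 54.5 and 68.5, lay 10.9 and 47.4 kb upstream of APOA1, inside the long neighbouring gene SIK3, which encodes a salt-inducible kinase. Thus 2 of the 5 peaks counted for APOA1 lay in the body of a gene that is not known as a hepatocyte marker. The nearest YAP peaks were 116.6 kb (Avruch) and 372.5 kb (Santa Cruz) from APOA1.

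The strongest TEAD1 peak of the whole set was in the fibrinogen locus. FGA encodes the alpha chain of fibrinogen, the precursor of the fibrin clot, and FGB and FGG beside it encode the beta and gamma chains. In the window chr4:155454000-155562000, the peak at chr4:155481975-155482435 scored 332.5, which placed it in the top 3.60% of the TEAD1 list. It was centred 1.8 kb upstream of the start of FGB and 29.8 kb from that of FGA. A second peak, at chr4:155523808-155524081, scored 104.7 (top 20.1%) and lay 11.9 kb upstream of the FGA start, 0.9 kb beyond the end of FGG. FGA itself carried no peak. No YAP peak lay in the window, and the nearest were 73.9 kb (Avruch) and 800.5 kb (Santa Cruz) from FGA.

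The place where YAP and TEAD1 coincided was the SERPINA1 window. SERPINA1 encodes alpha-1-antitrypsin, the main inhibitor of neutrophil elastase in plasma, and stands in a cluster of related serine protease inhibitor genes. In the window chr14:94793000-94907000, the TEAD1 peak at chr14:94812239-94812574 scored 166.3, in the top 9.82% of the TEAD1 list. The Avruch peak, at chr14:94812299-94812505, lay wholly inside it and scored 105.3, in the top 8.18% of the Avruch list. Both were centred 44.6 kb from the SERPINA1 start, in the stretch beyond the gene's end. The TEAD1 peak lay 30.4 kb from that end and 17.4 kb from SERPINA2, a related gene of the cluster. The other TEAD1 peak, at chr14:94840154-94840363, lay 2.6 kb beyond the end of SERPINA1 with a score of 95.1 (top 23.9%) and had its nearest YAP peak, the shared Avruch one, 27.6 kb away. The Santa Cruz antibody gave no peak at the shared site; its nearest was 186.8 kb from the TEAD1 peak there.

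HNF4A encodes a nuclear receptor that is a master regulator of hepatocyte genes, among them those for apolipoproteins and clotting factors. It had the most TEAD1 peaks of the 7, with 6 in the widest window (chr20:42934000-43111000), a density of 33.9 per Mb. At least 6 were found in 15.4% of genome tiles of its length. The strongest HNF4A peak, at chr20:43048770-43049133, lay in the gene body 65.0 kb past the first start and scored 141.2 (top 12.4%). A further peak in the gene, at chr20:43027015-43027336, scored 81.5 (top 32.7%) and was centred 43.2 kb past the first start. HNF4A is known to have a pair of promoters, and the downstream one is the one used in adult hepatocytes. In RefSeq's promoter table for GRCh38.p14 its entries for HNF4A lie 45.5 kb apart. If that spacing also holds in hg19, the peak centred 43.2 kb past the first start lies shortly upstream of the second start. An exact distance is not given, because the builds differ and gene positions are to the nearest kb.

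The other HNF4A peaks lay outside the gene. Upstream, a peak of score 84.1 at chr20:42964786-42965095 was centred 1.1 kb before the start of R3HDML, and the weakest of all 20 peaks, of score 50.2 at chr20:42939250-42939559, was centred 0.6 kb past the start of FITM2, a gene for lipid droplet formation. Peaks of scores 53.2 and 51.8 lay 31.4 kb upstream of the first start and 10.4 kb beyond the gene's end. The HNF4A window also held the Santa Cruz peak, at chr20:43084488-43084680, 23.5 kb beyond the gene's end, with a score of 64.4 (top 36.1% of the Santa Cruz list). No TEAD1 peak overlapped it, the nearest being 12.8 kb away, and the nearest Avruch peak was 58.4 kb away.

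Promoter letters were available from RefSeq for 4 of the 7 genes, in build GRCh38.p14. The peaks are in hg19 and no genome of that build was used, so the letters under the peaks themselves are not shown. The stretches below are the 250 bases before the start of ALB and FGA and before the second start of HNF4A, on the strand of the gene. ALB is shown because a TEAD1 peak lay 2.2 kb upstream of its start, HNF4A because this promoter is the one of adult hepatocytes, and FGA because it was the gene with the TEAD letters in its promoter. They were searched on both strands for GGAATG, the core that TEAD factors recognise, and for TGANTCA, the site of AP-1, a factor often found beside TEAD. Capitals mark a match.
ALB, chr4:73404037-73404286, plus strand: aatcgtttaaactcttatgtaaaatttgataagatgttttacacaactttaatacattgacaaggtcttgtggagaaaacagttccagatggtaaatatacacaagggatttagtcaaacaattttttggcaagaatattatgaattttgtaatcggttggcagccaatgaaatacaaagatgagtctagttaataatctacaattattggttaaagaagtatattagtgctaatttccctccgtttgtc
FGA, chr4:154590743-154590992, minus strand: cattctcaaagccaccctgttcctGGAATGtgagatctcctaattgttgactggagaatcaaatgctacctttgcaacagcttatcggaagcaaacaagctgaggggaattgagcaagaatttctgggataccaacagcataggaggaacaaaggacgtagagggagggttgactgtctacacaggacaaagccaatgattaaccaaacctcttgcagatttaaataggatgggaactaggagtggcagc
HNF4A, chr20:44400989-44401238, plus strand: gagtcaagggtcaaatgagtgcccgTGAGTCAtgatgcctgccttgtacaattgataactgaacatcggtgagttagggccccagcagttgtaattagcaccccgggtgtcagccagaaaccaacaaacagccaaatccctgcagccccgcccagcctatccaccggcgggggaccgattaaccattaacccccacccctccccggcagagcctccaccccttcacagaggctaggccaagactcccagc

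The FGA stretch held the TEAD letters once, beginning 226 bases before the start, and the HNF4A stretch held the AP-1 letters once, beginning 225 bases before the start. The ALB stretch held neither. Among the 35116 promoter entries of the table, 11.9% held the TEAD letters and 6.57% the AP-1 letters in the same 250 bases. The first HNF4A promoter and both SERPINA1 entries held neither. The nearest TEAD1 peak to the FGA start was centred 11.9 kb away, so the one promoter here with TEAD letters had no TEAD1 peak over it. Promoters of APOB, APOA1 and TTR were not available. APOB was the gene with a TEAD1 peak within 1 kb of its start, so whether letters and peaks go together was not tested.

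Of the 20 TEAD1 peaks, 8 were centred upstream of their gene, 3 in the gene body and 9 beyond its end. Only those at APOB and ALB lay within 5 kb of the first start of 1 of the 7 genes, as drawn here. Starts further inside a gene were not counted. The HNF4A peak 43.2 kb past the first start would lie near the second start, if the spacing of 45.5 kb holds in hg19. The strongest peaks of the FGA and APOA1 windows were instead centred 1.8 and 1.0 kb from the starts of FGB and APOA5, which are hepatocyte genes as well. Their scores ran from 50.2 to 332.5, with a median of 73.3, against a median of 67.1 over the whole TEAD1 list. A score of at least 100 was reached by 6 of the 20 (30%, exact binomial 95% interval 11.9 to 54.3), against 21.9% of the whole list. These 6 lay at APOA1 and FGA, with 2 each, and at HNF4A and SERPINA1, with 1 each. Peak widths ran from 204 to 549 bp, with a median of 292 bp, against 274 bp over the list.

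**Figure D2:**
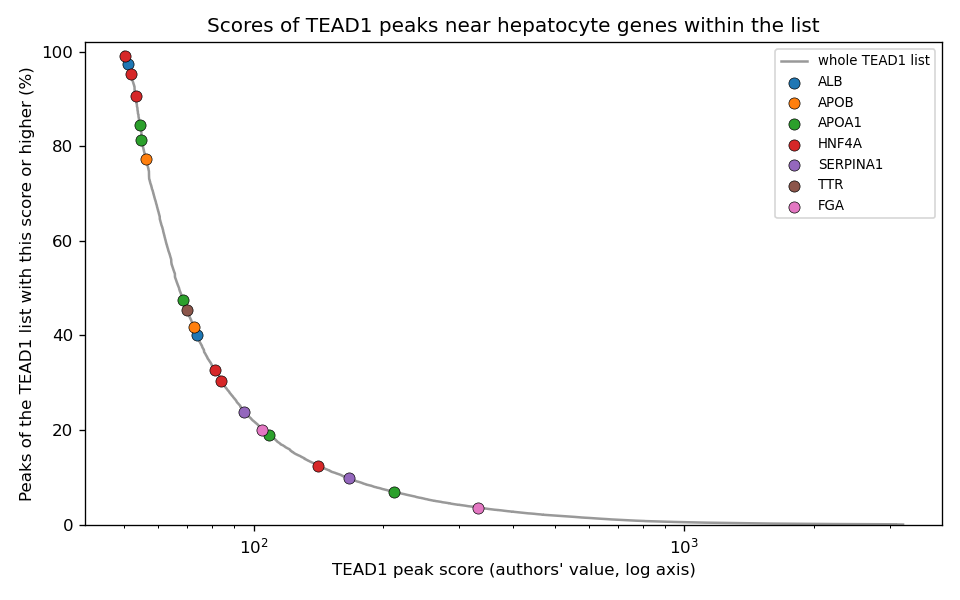
Score of each TEAD1 peak near the 7 hepatocyte genes (x axis, authors' value without a unit, log scale) against the percentage of the whole TEAD1 list with that score or a higher one (y axis); the grey line is the whole list and points are coloured by gene. The points run along nearly the whole line, from 50.2 at HNF4A to 332.5 at FGA, while the list itself reaches 3219.4.

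The TEAD1 peaks near the 7 hepatocyte genes were spaced apart from each other. None of the 20 had another TEAD1 peak within 10 kb (exact binomial 95% interval up to 16.8%), against 51.0% of the whole TEAD1 list. The interval takes peaks as independent and is too narrow, since adjacent peaks share a gap, as both ALB peaks did (15.6 kb). The gap to the next TEAD1 peak ran from 11.7 kb to 166.9 kb, with a median of 21.4 kb, against 9.57 kb over the list. This share was looked at after the values had been seen, and it depends on the limits chosen: with 20 kb in place of 10 kb it was 45%, against 66.5% of the list, and with 100 kb to either side of the genes 23.3% of 30 peaks had a neighbour within 10 kb. At 19 further hepatocyte genes, 43.6% of 55 TEAD1 peaks had a neighbour within 10 kb.

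As a list, the hepatocyte genes had fewer TEAD1 peaks per Mb than 7 YAP targets, by more than the counting error of independent peaks. Most of the target peaks lay at CYR61 and AMOTL2. From a list of 6 bile duct genes the hepatocyte genes did not differ beyond that error. The bile duct list held KRT7 and KRT19, keratins of the ductal cytoskeleton, SOX9, a transcription factor of the ductal lineage, EPCAM, an adhesion molecule, SPP1, the osteopontin gene, and CFTR, a chloride channel. The target list held CTGF, CYR61, ANKRD1, AMOTL2, LATS2, AJUBA and F3. TEAD1 peaks lay at 23.0 per Mb near the hepatocyte genes, at 29.7 per Mb near the bile duct genes (19.2 to 43.8) and at 52.9 per Mb near the YAP targets (38.6 to 70.8). The ratio to the bile duct genes was 0.776, with an interval (0.409 to 1.46) that included 1, and with flanks of 25 kb it was 1.05. The bile duct density was lowered by CFTR, which gave 1 of the 25 peaks (3.46 per Mb). Its window took up 289 kb of the 0.842 Mb of that list. The ratio without CFTR was not computed, so a difference from the other bile duct genes remains possible. The ratio to the YAP targets was 0.435 (0.243 to 0.752). With peaks at most 1 kb apart joined, it was 0.560 (0.306 to 0.997). The intervals take peaks as independent, but 84.4% of the TEAD1 peaks near the YAP targets had another within 10 kb. CYR61 and AMOTL2 held 13 each of those 45 peaks. The ratio without these genes was not computed, so the difference may rest on them. CTGF and AJUBA, at 48.1 and 71.4 per Mb, also lay above the 23.0 per Mb of the hepatocyte list. ANKRD1, LATS2 and F3, at 18.3, 15.9 and 8.93 per Mb, lay below it. The ratio of hepatocyte to further hepatocyte genes was 0.979 (0.556 to 1.66), from 23.0 against 23.5 per Mb. Genes within a list are not replicates, and the lists were not drawn at random, so these ratios describe the lists in this library.

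The lists overlapped gene by gene. Counts per hepatocyte window ran from 1 to 6 with a median of 2, those of bile duct genes from 1 at CFTR to 10 at KRT7 with a median of 3, and those of YAP targets from 1 at F3 to 13 at CYR61 and AMOTL2 with a median of 5. SOX9 and SPP1, with 2 TEAD1 peaks each, and ANKRD1, also with 2, stood level with ALB and APOB. The highest score in a window was 332.5 among the hepatocyte genes, 1116.2 among the bile duct genes, at KRT7, and 3039.5 among the YAP targets, at CTGF. The bile duct value came from KRT7 alone. EPCAM also reached 332.5, and KRT19, SOX9, SPP1 and CFTR reached 88.2, 58.9, 116.6 and 58.5. Among the YAP targets, every gene but F3 (135.5) went above 332.5. A score of at least 100 was reached by 30% of TEAD1 peaks near the hepatocyte genes. It was reached by 36% near the bile duct genes (9 of 25, most of them at KRT7) and by 57.8% near the YAP targets (26 of 45).

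**Figure D3:**
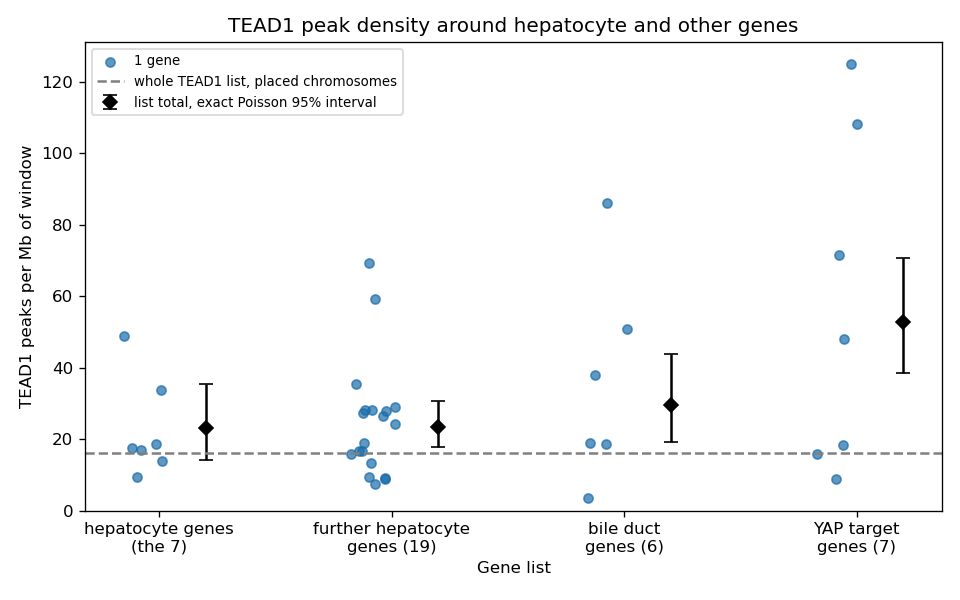
TEAD1 peaks per Mb of window (y axis) for each gene (blue points) of 4 gene lists, with the total of each list and its exact Poisson 95% interval (black diamonds and bars) and the density over all placed chromosomes (dashed line). The 7 hepatocyte genes total 23.0 per Mb and the YAP targets 52.9 per Mb, while single genes of every list lie on both sides of the dashed line at 16.2 per Mb.

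**Figure D4:**
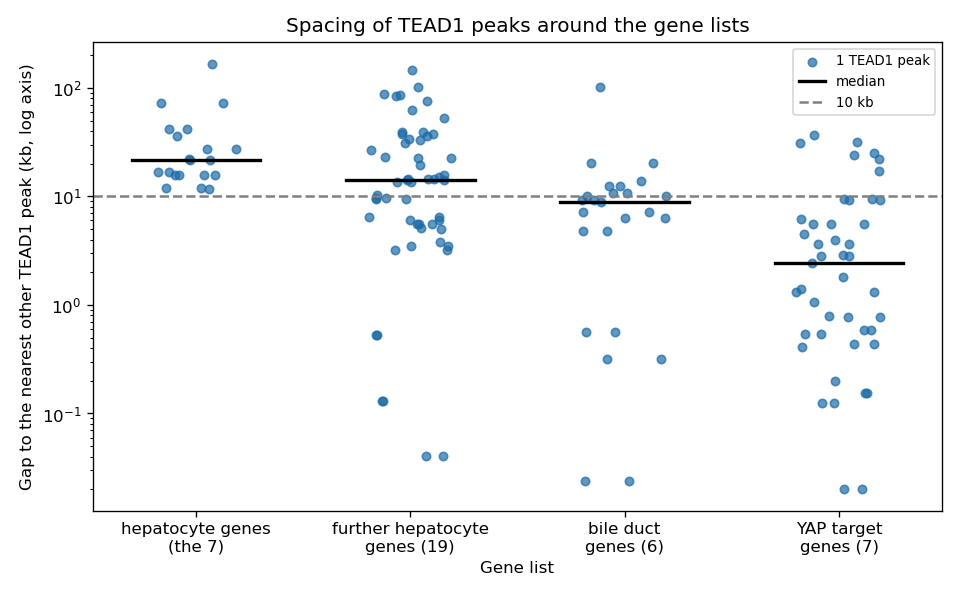
Gap from each TEAD1 peak to the nearest other TEAD1 peak in kb (y axis, log scale) for the 4 gene lists, with the median of each list (black line) and a dashed line at 10 kb. All 20 points of the 7 hepatocyte genes lie above the dashed line with a median of 21.4 kb, and the YAP targets have a median of 2.45 kb.

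The further hepatocyte genes had TEAD1 peaks in similar number. All 19 had at least 1 TEAD1 peak, as did 66.8% of the 124 kb genome tiles, which are not a background of genes. The windows of the 19 ran from 101 kb at APOA2 to 302 kb at CPS1. Their counts ran from 1 to 7 with a median of 3. The most were found at APOA2, an apolipoprotein gene of high-density lipoprotein, and at APOH, the beta-2-glycoprotein gene, with 7 each, followed by CPS1, a urea cycle enzyme, and G6PC, the glucose-6-phosphatase of glucose release, with 4 each. APOA2 had 69.3 TEAD1 peaks per Mb, and 3.95% of genome tiles of its length held as many. The genes with a single peak were CYP2E1, TF, PCK1 and HPX. For TF, the length used differed from RefSeq's by 101.6 kb, so its count depends on the gene body drawn here. The highest score among these 55 peaks was 328.5, in the CYP3A4 window, close to the 332.5 found beside FGB.

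YAP peaks were few near each list, at densities whose counting intervals included that over all placed chromosomes. Of the TEAD1 peaks near the 7 hepatocyte genes, 1 of 20 overlapped a YAP peak (5%, exact binomial 95% interval 0.127 to 24.9), against 3.59% of the whole TEAD1 list. The same count was 2 of 55 near the further hepatocyte genes, 0 of 25 near the bile duct genes (interval up to 13.7%) and 0 of 45 near the YAP targets (interval up to 7.87%). Avruch peaks numbered 1 near the 7 hepatocyte genes, 9 near the 19 further ones, 2 near the bile duct genes, both at EPCAM, and 2 near the YAP targets, both at LATS2. These counts came to 1.15, 3.85, 2.38 and 2.35 Avruch peaks per Mb in that order of lists, against 3.24 per Mb over all placed chromosomes. An Avruch peak lay in the windows of 8 of the 19 further hepatocyte genes, and 25.6% of the 124 kb genome tiles held at least 1. Santa Cruz peaks numbered 1, 2, 0 and 1 in the same order of lists, or 1.15, 0.856, 0 and 1.18 per Mb, against 0.761 per Mb over those chromosomes. The nearest Avruch peak lay at a median distance of 116.6 kb from the hepatocyte gene bodies (30.5 to 486.4 kb), against 62.4 kb for the further hepatocyte genes, 149.6 kb for the bile duct genes and 96.1 kb for the YAP targets. With so few YAP peaks and an unknown read depth, no difference in YAP peaks between the 7 hepatocyte genes and the others was detectable.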

How the data were processed

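Chromatin from H69 cells was crosslinked, sonicated and precipitated with 1 antibody per library, per the labels' protocols. The submitters' processing notes name Bowtie2 and build hg19, and the peak names carry the name MACS. Settings of the peak caller, its control library, filters and read depth were not stated in these sources. Each peak has a deposited score, computed by the authors on a scale that is not stated. The IgG library was not analysed here. The design text names the antibodies labelled YAP and TEAD as Avruch and TEAD1.

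Windows are gene bodies to the nearest kb in hg19 plus 50 kb. Positions of the 7 genes came with the choice of genes, and those of the other lists and of neighbours from general knowledge. All 54 lay on the chromosome RefSeq gives, and 51 had a length within 2 kb of RefSeq's. KRT7, TF and B4GALT6 differed, by 6.6, 101.6 and 39.4 kb. All 15 neighbours were spaced from their gene as in RefSeq within 2 kb. Overlap means at least 1 bp. Intervals are exact 95% Poisson or binomial (scipy 1.17.1) and cover counting error only. Counting was tested on made-up peaks at known places. Every gene of the 7, and every peak near them, is named. Of the further hepatocyte genes, the 4 with the most TEAD1 peaks are named by rule; the genes with 1 peak, and CYP3A4, were named after their values were seen. The genes and lists were chosen with earlier results of these data known. A gene of the bile duct list and one of the further hepatocyte list are not reported here and were left out of all counts.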

Additional observations from a re-analysis of the deposited data

How the results depend on the processing

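Flanks of 25 and 100 kb, the 50% of peaks with the highest scores, joining of peaks that stood at most 1 kb apart, any overlap with the window, and leaving out HNF4A were tried. For the overlap with YAP, centres within 1 kb and an overlap of 50% of both peaks were tried as well. Of 50 alternative values, 45 stayed within the interval of the reported one. For the YAP values this is a weak check. Each rests on 1 peak, and an interval such as 0.0292 to 6.42 per Mb leaves room for almost any value but 0. TEAD1 peaks per Mb near the hepatocyte genes ran from 15.0 to 25.1, the ratio to the bile duct genes from 0.682 to 1.05, the ratio to the YAP targets from 0.354 to 0.560 and the ratio to the whole list from 1.18 to 1.86. The 15.0 per Mb came with the 50% of peaks with the highest scores, a choice that lowers the density of the whole list too. That setting also gave the ratio of 1.86. With flanks of 25 kb, Avruch peaks fell to 0 per Mb and the TEAD1 share with a YAP peak to 0%, since the one shared site lies 30.4 kb from SERPINA1. Without HNF4A, Santa Cruz peaks fell to 0 per Mb, since the one peak lies in its window. The share of TEAD1 peaks with a neighbour within 10 kb was tried with alternatives chosen after seeing the data. It was 23.3% with flanks of 100 kb and 45% with a gap of 20 kb. With flanks of 25 kb, a gap of 5 kb, the higher-scoring peaks or HNF4A left out, it was 0%. Those 0% values are no check, because each such setting only takes peaks away or shortens the gap, and the reported share was already 0%. No paired analysis was possible because each antibody has 1 library. Read depth is not known, so peaks missed for lack of reads cannot be told apart from sites that were not bound.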
